A study of Mus musculus with 2 samples.

Results

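The genes described here encode the killing machinery of cytotoxic lymphocytes: the granzymes Gzma, Gzmb, Gzmc, Gzmk and Gzmm, the pore-forming protein Prf1, the granule-associated genes Nkg7 and Ctsw, and the death ligand Fasl. They were chosen by name as the rows of both gene matrices that carry these symbols, and the 9 members were found among 32285 gene IDs in each library. Levels were followed in single cells of the colon lamina propria, the connective tissue layer under the gut epithelium, from 2 droplet libraries with 1 library per group. The study removed the transcription factor Runx3 with a Cre recombinase under the Lyz2 promoter, active in the myeloid lineage, and set these mice beside littermates that carry the floxed Runx3 allele without Cre, so both groups share that allele. The study gives the mice as male, with cells pooled before the library was made. No age or treatment is given in the labels for these samples. The labels give cd11b+ as the cell line, read here as the sorted cells, and the tissue as gut. The libraries are titled Runx3_fl and Runx3, and since neither title states whether Cre was present, they are called by these titles, and a value under Runx3_fl or under Runx3 is one from the library with that label. With 1 library per group there was no test of any difference, no replicate check, and the values in square brackets are the ends of 95% intervals that cover counting error only.

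Cytotoxic lymphocytes store granzymes and perforin in secretory granules and release them into the contact zone with a target cell. Perforin opens pores in the target membrane, and granzymes, which are serine proteases, pass through and cleave proteins that start cell death. Granzyme B cuts after aspartate and activates caspases and Bid, whereas granzyme A is a tryptase whose substrates lead to death without caspases and to inflammation. Natural killer (NK) cells keep transcripts of these genes ready, CD8 T cells acquire them on activation, and some CD4 T cells of the gut epithelium and lamina propria also express granzyme B. Runx3 and the T-box factors T-bet (Tbx21) and Eomes are known regulators of this program in CD8 T and NK cells. A Cre driven by Lyz2 is not meant to act in lymphocytes, so the question put here was how the cytotoxic genes were distributed over lymphocytes that came through a sort meant for myeloid cells, and whether their levels differed between the libraries.

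The stretches in front of 4 of these genes are shown because RUNX and T-box factors are the regulators named above, and the genes differ in which core motifs lie at their starts. Sequences were taken from RefSeq on GRCm38.p6, cover up to 250 bases before the start site, are written 5′ to 3′ on the strand of the gene and end before the first base annotated as transcribed. Capitals mark the RUNX core TGTGGT or, on the opposite strand, ACCACA, and the T-box core AGGTGT or ACACCT. The windows lie at chr13:113100982-113101231 for Gzma and chr14:56262335-56262584 for Gzmb, both on the minus strand, and at chr10:61297586-61297832 for Prf1 and chr7:43436888-43437072 for Nkg7, both on the plus strand.
Gzma: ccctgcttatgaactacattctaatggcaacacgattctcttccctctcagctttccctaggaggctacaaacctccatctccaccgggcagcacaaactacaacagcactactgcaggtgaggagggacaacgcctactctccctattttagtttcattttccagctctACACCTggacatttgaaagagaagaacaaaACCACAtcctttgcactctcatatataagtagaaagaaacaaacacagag
Gzmb: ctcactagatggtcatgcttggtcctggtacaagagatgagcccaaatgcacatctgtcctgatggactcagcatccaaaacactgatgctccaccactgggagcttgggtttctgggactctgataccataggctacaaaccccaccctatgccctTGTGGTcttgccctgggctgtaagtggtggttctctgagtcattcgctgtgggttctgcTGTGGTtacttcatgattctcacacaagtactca
Prf1: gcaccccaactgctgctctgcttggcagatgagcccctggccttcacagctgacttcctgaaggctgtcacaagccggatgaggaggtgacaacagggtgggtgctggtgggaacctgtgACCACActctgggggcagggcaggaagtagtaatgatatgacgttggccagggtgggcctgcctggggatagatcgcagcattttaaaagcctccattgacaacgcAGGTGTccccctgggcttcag
Nkg7: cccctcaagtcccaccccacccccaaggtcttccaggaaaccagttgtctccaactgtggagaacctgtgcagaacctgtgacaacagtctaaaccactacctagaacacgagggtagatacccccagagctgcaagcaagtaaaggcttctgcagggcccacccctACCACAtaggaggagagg
The Gzma window held 1 RUNX core that begins 50 bases before the start and 1 T-box core at 80 bases. Gzmb held 2 RUNX cores, at 93 and 34 bases, and no T-box core. In Prf1 the RUNX core lay at 130 bases and the T-box core at 24, and in Nkg7 they lay at 83 and 14 bases, the latter past the end of the printed stretch. Promoter rows were found for 8 of the 9 members, of which 6 held a RUNX core and 4 a T-box core in their first listed promoter, and no match was found for Fasl in this window. The T-box cores of Gzmk, at 232 and 169 bases, lay in sequence annotated as part of the gene, as did that of Nkg7. For comparison, 14.0% of 32851 promoters held the RUNX core, 11.8% held the T-box core and 1.27% held 2 or more RUNX cores. No RUNX core overlapped a T-box core in these windows, and a match of 6 bases is a description of the letters and not of binding.

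The genes were placed on GRCm38, each is annotated as protein coding, and the identifiers of the 9 members matched the annotation. Gzma (ENSMUSG00000023132) spans chr13:113093825-113100981 and Gzmk (ENSMUSG00000042385) spans chr13:113171608-113225908, both on the minus strand. Gzmb (ENSMUSG00000015437, chr14:56258838-56262260) and Gzmc (ENSMUSG00000079186, chr14:56231441-56234656) lie on the minus strand of the granzyme cluster that also holds Gzmd, Gzme, Gzmf, Gzmg and Gzmn. Prf1 (ENSMUSG00000037202, chr10:61297833-61304680) and Gzmm (ENSMUSG00000054206, chr10:79689020-79695261) lie on the plus strand. Nkg7 (ENSMUSG00000004612) is at chr7:43437073-43438249 on the plus strand, and Fasl (ENSMUSG00000000817) and Ctsw (ENSMUSG00000024910) are at chr1:161780689-161788495 and chr19:5465043-5468507 on the minus strand. Gzmk overlaps Esm1 and Ctsw overlaps Fibp on the other strand. Gzmb and Gzmc share a run of 49 bases, which falls to 9 bases within the last 500 bases of their transcripts, the end that a 3′ library reads.

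The libraries differed in depth and makeup before any member was considered. After the study's filter of 200 to 6000 genes and at most 15% mitochondrial molecules, 11885 of 12968 cells remained of the Runx3_fl-labelled library and 8167 of 8953 of that labelled Runx3, with median counts of 9573 and 5731 unique molecular identifiers (UMIs, each counting 1 captured transcript). They shared 37 cell barcodes, or 0.413% of the smaller library. Xist, which is transcribed from the inactive X chromosome, stood at 212 CPM (UMIs of a gene summed over cells, per 1000000 UMIs of those cells) in the former and 0.183 CPM in the latter, although the mice were given as male. The part of a difference in sex between the libraries in the results was not tested and cannot be told apart from the label. Runx3 itself was at 187 CPM [183, 192] against 209 CPM [204, 214] in the myeloid cells, so the targeted gene was not lower where the title names it, and a 3′ count need not cover the deleted part. In NK cells Runx3 was at 801 and 613 CPM, in CD8 T cells at 231 and 362 CPM and in CD4 T cells at 252 and 181 CPM. Pairs of values are given in this order throughout, Runx3_fl first.

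Cells were gated by the presence of at least 1 UMI. The NK gate (Ncr1 without Cd3e) held 1396 and 127 cells, or 11.7% and 1.56% of the kept cells. The CD8 T gate (Cd8a, Cd8b1 and Cd3e) held 1213 and 76 cells, the CD4 T gate (Cd4 and Cd3e) 1543 and 208 cells, and the myeloid gate (Csf1r), which served as background, 2679 and 3154 cells. A share of cells in a sorted library reflects the sort as well as the tissue, so these shares are not read as frequencies in the colon. Median UMIs per cell were 8015 and 10214 in the NK gate, 15698 and 11317.5 in the CD8 T gate, 14269 and 10052.5 in the CD4 T gate and 12988 and 9684.5 in the myeloid gate. Each of the 10 NK markers was detected in at least 25% of the NK gate in both libraries, and each of the 7 T cell markers in at least 25% of both T cell gates. Ncr1 and Cd3e are on these lists and also define the gates, so their detection was fixed. The NK list is not specific to NK cells, since 5 and 4 of its genes also reached 25% of the CD8 T gate. In the CD4 T gate 2 and 1 did. Itgam, which encodes the CD11b named in the sort, had a UMI in 59.7% and 55.9% of the NK gate, 41.1% and 27.6% of the CD8 T gate, 39.1% and 33.2% of the CD4 T gate and 64.0% and 63.1% of the myeloid gate.

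Markers of other cell types moved with the library in the lymphoid gates. Of the 10 macrophage and monocyte markers, 2 and 4 were detected in at least 25% of the NK gate, 3 and 6 in the CD8 T gate and 3 and 10 in the CD4 T gate, and their summed level was 717 and 1143 CPM, 1393 and 1762 CPM, and 779 and 2028 CPM. Csf1r had a UMI in 4.30% and 21.3% of the NK gate, 9.81% and 28.9% of the CD8 T gate and 11.2% and 34.1% of the CD4 T gate. The 5 neutrophil markers summed to 46.6 and 4004 CPM in the NK gate, 47.7 and 198 CPM in the CD8 T gate and 71.7 and 272 CPM in the CD4 T gate, and the 4 B cell markers to 10.0 and 47.5 CPM, 9.79 and 75.7 CPM, and 10.5 and 90.8 CPM. The 7 T cell markers themselves summed to 3679 and 1811 CPM in the CD8 T gate and 3756 and 1754 CPM in the CD4 T gate. The part of these differences in the results was not tested, but T cell ratios are also given for cells with no marker of another lineage. Cells in more than 1 of the 4 gates numbered 60 and 27 in the NK gate, 157 and 23 in the CD8 T gate, 211 and 72 in the CD4 T gate and 344 and 116 in the myeloid gate.

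Of the 4 gates, Gzma transcripts were at their highest in NK cells of both libraries. The NK gate held 5479 CPM [5439, 5519] under Runx3_fl and 3414 CPM [3321, 3509] under Runx3, a log2 ratio of Runx3 over Runx3_fl of −0.68 [−0.72, −0.64]. Log2 ratios were taken after adding 1 CPM to both levels, and their intervals are those of the ratio without that addition. In single NK cells the median was 4783 and 2743 CPM, and the 10th percentile was 1385 and 33.2 CPM, so the lower tail of NK-gated cells reached further down under Runx3. Neutrophil markers, at 46.6 and 4004 CPM, moved with this gate, and in NK cells with no marker of another lineage (1270 and 86 cells) the log2 ratio of Gzma was −0.53. When each cell was thinned to 2000 UMIs to equalise depth, 96.3% and 83.2% of NK cells had a Gzma UMI, against 98.0% and 89.8% with all UMIs. The thinned share was 13.1% and 2.44% in the myeloid gate and 7.97% and 1.80% in B cells (Cd79a and Ms4a1 without Cd3e, 138 and 1070 cells, median 7027 and 6877 UMIs), which are not known to make the protein.

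The CD8 T gate held 3364 CPM [3339, 3389] of Gzma and then 272 CPM [240, 306], a log2 ratio of −3.63 [−3.81, −3.46] or 12.3-fold. The share of CD8 T cells with a Gzma UMI was 86.0% and 14.5% after thinning and 95.1% and 22.4% with all UMIs, and the tenth of CD8 T cells with the most Gzma held 35.6% and 84.4% of its UMIs, so under Runx3 the transcript was concentrated in a few cells. CD4 T cells held 368 and 17.9 CPM, a log2 ratio of −4.28 [−4.79, −3.96]. The myeloid gate held 403 and 45.3 CPM and B cells held 99.7 and 29.7 CPM. The CD4 T level of Gzma was therefore below that of the myeloid gate in both libraries, although it was above the 139 and 14.8 CPM of myeloid cells without a Cd3e or Ncr1 UMI, and it is not read as more than background.

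Gzmb, the caspase-activating granzyme, did not share the order of Gzma. In NK cells it was at 931 CPM [915, 948] and 1181.5 CPM [1127, 1238], a log2 ratio of 0.34 [0.27, 0.42], higher under Runx3, and 0.55 in NK cells with no marker of another lineage. CD8 T cells held 2617 CPM [2595, 2639] and 305 CPM [271, 341], a log2 ratio of −3.10 [−3.27, −2.94]. Under Runx3_fl the Gzmb level of CD8 T cells thus stood above that of NK cells, with a log2 ratio of CD8 T over NK of 1.49, whereas under Runx3 it stood below, at −1.95. Gzmb was also the granzyme of CD4 T cells, with 1070 CPM [1057, 1083] and 179 CPM [163, 195], a log2 ratio between the libraries of −2.58 [−2.71, −2.45]. The myeloid gate held 293 and 30.2 CPM. Thinned shares of cells with a Gzmb UMI were 68.0% and 70.4% in the NK gate, 88.7% and 19.7% in the CD8 T gate, 66.7% and 11.6% in the CD4 T gate, 13.3% and 2.33% in the myeloid gate and 2.17% and 1.42% in B cells. With all UMIs they were 89.8% and 88.2%, 97.4% and 34.2%, 90.2% and 23.6%, 25% and 5.07%, and 13.8% and 3.08%.

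The balance of the 2 granzymes differed between the gates in the same order in both libraries. NK cells held 5.88 Gzma UMIs [5.77, 6.0] per Gzmb UMI in the first library and 2.89 [2.74, 3.05] in the other. CD8 T cells held 1.29 [1.27, 1.30] and 0.891 [0.753, 1.05], and CD4 T cells 0.344 [0.336, 0.352] and 0.100 [0.0735, 0.134]. Gzma thus weighed most against Gzmb in NK cells and least in CD4 T cells, and the intervals of the gates did not overlap within a library. The myeloid gate held 1.38 [1.34, 1.41] and 1.5 [1.39, 1.62] Gzma UMIs per Gzmb UMI, values between those of NK and CD4 T cells in each library, and B cells held 2.28 [1.69, 3.10] and 2.87 [2.29, 3.63].

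**Figure D1:**
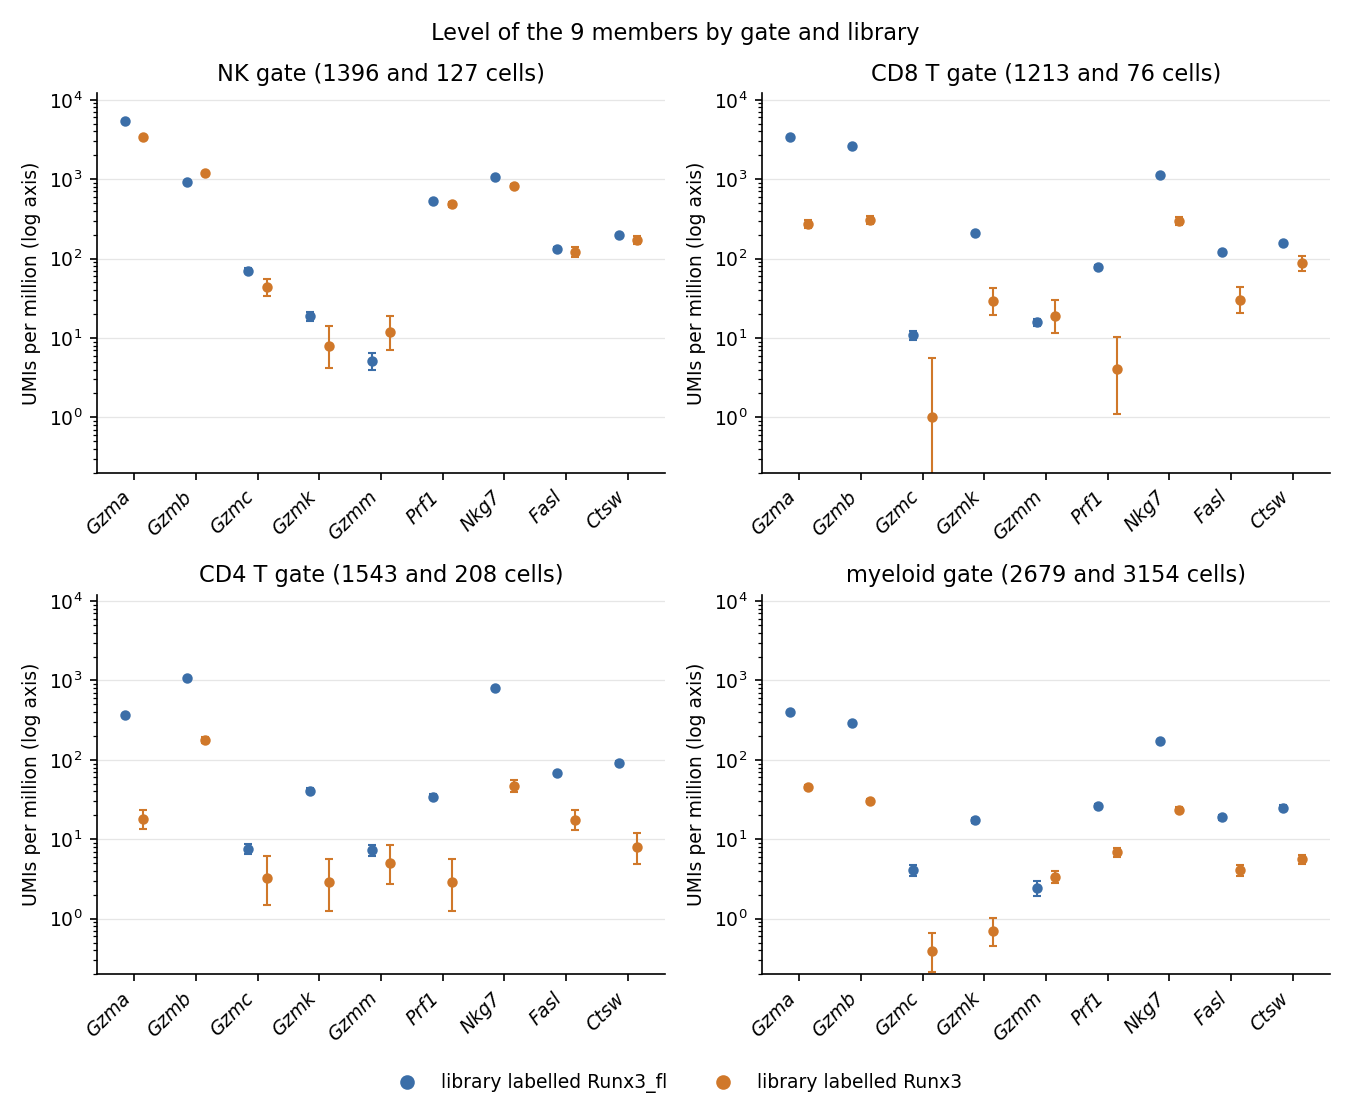
Level of each member (CPM, log axis) in the NK, CD8 T, CD4 T and myeloid gates of the libraries labelled Runx3_fl and Runx3, 1 library each, with cell numbers in the panel titles. Points are levels and bars 95% Poisson intervals of counting error. Gzma, Gzmb, Prf1 and Nkg7 of the 2 libraries lie close together in NK cells (Gzmb 931 and 1181.5) and far apart in CD8 T cells (Gzmb 2617 and 305).

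The minor granzymes followed separate cell types. Gzmk, a tryptase often found in memory CD8 T cells, was at 209 CPM [203, 215] and 29.3 CPM [19.6, 42.0] in CD8 T cells, a log2 ratio of −2.79 [−3.41, −2.31]. That gate held 69.8% and 33.7% of its UMIs over the kept cells. NK cells held 18.8 CPM [16.5, 21.3] and 8.02 CPM [4.15, 14.0] of Gzmk, a log2 ratio of −1.13 [−2.20, −0.39] that rests on 12 UMIs under Runx3. Under Runx3_fl the NK level was close to the 17.3 CPM of the myeloid gate. CD4 T cells held 41.1 and 2.87 CPM.

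Gzmc, a granzyme of the same cluster as Gzmb, was at 70.7 CPM [66.2, 75.4] and 43.5 CPM [33.5, 55.4] in NK cells, a log2 ratio of −0.69 [−1.09, −0.34]. The tenth of NK cells with the most Gzmc held 90.7% and 98.5% of its UMIs, and thinned cells with a Gzmc UMI made up 5.68% and 3.20% (16.0% and 10.2% unthinned), so Gzmc was a gene of few NK cells. CD8 T cells held 10.8 CPM and, from 1 UMI in 76 cells, 1.01 CPM [0.0256, 5.62]. A single B cell of the Runx3_fl-labelled library held 126 Gzmc UMIs, which alone gave B cells 84.9 CPM. Gzmm, whose product cleaves after methionine, stayed low, at 5.10 CPM [3.94, 6.48] and 12.0 CPM [7.13, 19.0] in NK cells, a log2 ratio of 1.10 [0.40, 2.01] from 66 and 18 UMIs. CD8 T cells held 15.7 CPM [14.0, 17.4] and 19.2 CPM [11.5, 30.0] of Gzmm, a log2 ratio of 0.28 [−0.46, 0.96] whose interval spans 0. The myeloid gate held 2.42 and 3.35 CPM, so Gzmm was the member without a lower level in CD8 T or myeloid cells of the Runx3-labelled library.

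Prf1, which encodes perforin, was foremost a transcript of NK cells. The NK gate held 528 CPM [515, 540] and 480 CPM [446, 517], a log2 ratio of −0.14 [−0.25, −0.03], and 57.7% and 54.4% of thinned NK cells had a Prf1 UMI (88.0% and 83.5% unthinned). CD8 T cells held 78.9 CPM [75.1, 82.7] and 4.04 CPM [1.10, 10.3], the latter from 4 UMIs in 76 cells, a log2 ratio of −3.99 [−6.17, −2.93]. Perforin was therefore far lower in CD8 T than in NK cells of both libraries, with log2 ratios of CD8 T over NK of −2.73 and −6.58, although Gzmb under Runx3_fl had the opposite order. After thinning, 14.6% of CD8 T cells labelled Runx3_fl had a Prf1 UMI and 0 of 76 labelled Runx3, so that up to 3.95% of cells could have a UMI at that depth (3 counts, the limit set for a count of 0), beside 59.9% and 5.26% with all UMIs and thinned shares of 3.07% and 1.09% in the myeloid gate. CD4 T cells held 34.5 and 2.87 CPM, the myeloid gate 26.1 and 6.87 CPM and B cells 24.9 and 4.26 CPM, so the CD4 T level of perforin under Runx3 was not above background.

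Nkg7, a membrane protein of cytotoxic granules that promotes their release, was shared by the 3 lymphocyte types of the Runx3_fl-labelled library, with 1060 CPM [1042, 1078] in NK, 1136 CPM [1121, 1150] in CD8 T and 808 CPM [797, 820] in CD4 T cells. Under Runx3 the levels were 831 CPM [786, 879], 295 CPM [262, 331] and 47.4 CPM [39.6, 56.2]. The log2 ratios were −0.35 [−0.44, −0.27], −1.94 [−2.12, −1.78] and −4.06 [−4.35, −3.85], so that the distance between libraries widened from NK to CD8 T to CD4 T cells. Ctsw, a papain-like cysteine protease restricted to cytotoxic lymphocytes, had the same order. It was at 196 CPM [189, 204] and 172 CPM [151, 194] in NK, 156 and 87.8 CPM in CD8 T and 91.8 and 7.90 CPM in CD4 T cells, with log2 ratios of −0.19 [−0.38, −0.00469], −0.82 [−1.16, −0.52] and −3.38 [−4.22, −2.94]. The myeloid gate held 173 and 23.7 CPM of Nkg7 and 25 and 5.59 CPM of Ctsw, log2 ratios of −2.82 and −1.98.

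Fasl, whose product engages the death receptor Fas on target cells, was at 133 CPM [127, 139] and 121 CPM [104, 140] in NK cells, a log2 ratio of −0.13 [−0.36, 0.09]. CD8 T cells held 119 and 30.3 CPM, a log2 ratio of −1.94 [−2.55, −1.46], and CD4 T cells 68.0 and 17.6 CPM, a log2 ratio of −1.89 [−2.39, −1.54]. The myeloid gate held 19.0 and 4.05 CPM, a log2 ratio of −1.99 [−2.50, −1.97], so Fasl differed there by as much as in the T cell gates. The NK interval spans 0.

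A member was counted as different between libraries at a log2 ratio of 1 or more in either direction, among genes with at least 10 CPM in 1 of the libraries. In NK cells 1 member, Gzmm, was higher and 1, Gzmk, was lower of 9, against 5.98% and 1.21% of 8088 genes. In CD8 T cells 0 were higher and 7 of 9 lower, against 15.5% and 11.1% of 8673 genes, with Gzmm and Ctsw the exceptions. Among CD4 T cells 7 members reached 10 CPM and those 7 were lower and 0 higher, against 8.68% lower and 15.4% higher of 8662 genes, and Gzmc and Gzmm lay below that level. In the myeloid gate 7 members reached 10 CPM, 7 were lower and 0 higher, against 3.05% and 7.68% of 8302 genes. The members counted that reached 10 CPM in a single library, and so entered the count through the library where they were high, were Gzmk and Gzmm in NK cells, Gzmc and Prf1 in CD8 T cells, Gzmk, Prf1 and Ctsw in CD4 T cells and these with Fasl in the myeloid gate, so the counts lend no support beyond the levels given above. Both NK calls rest on low levels and were lost with a pseudocount of 10 CPM or 2 UMIs of each gate gene, and Gzmk turned to 1.78 when the myeloid level was subtracted. The median log2 ratio over the 9 members, those below 10 CPM included, was −0.19 in NK, −2.55 in CD8 T, −3.20 in CD4 T and −1.99 in myeloid cells. Over genes that reached 10 CPM the medians were 0.07, 0.06, 0.02 and 0.13.

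**Figure D2:**
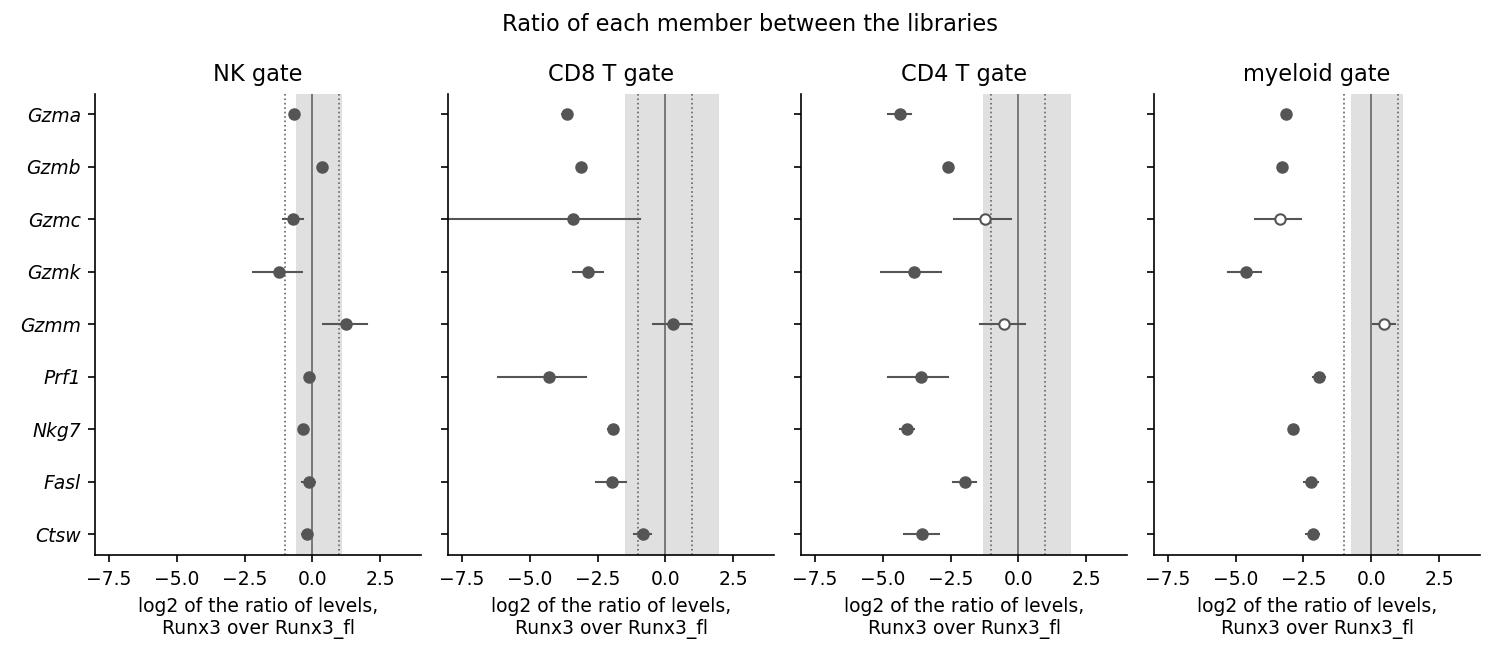
Log2 ratio of each member's level, library labelled Runx3 over library labelled Runx3_fl, in 4 gates, without an added CPM. Points are ratios, bars their 95% counting intervals, open points members below 10 CPM in both libraries, the grey band the range from the 5th to the 95th percentile of genes and dotted lines the limits of 1 for a call. In NK cells Gzma, Gzmb, Prf1 and Nkg7 lie between the dotted lines, and in CD8 T cells 7 members lie to the left of them.

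Against the myeloid gate of the same library, a log2 ratio of 2 or more was reached by 6 members in NK cells of the Runx3_fl-labelled library and by 7 under Runx3, where 4.01% and 3.49% of genes reached it. CD8 T cells had 7 and 7 such members, against 3.87% and 2.72% of genes. CD4 T cells had 1 and 1, Nkg7 under Runx3_fl and Gzmb under Runx3, against 3.39% and 2.37%. Gzma of NK cells stood 13.6-fold and 73.7-fold above the myeloid gate and Prf1 19.5-fold and 61.1-fold. Gzmb of NK cells stood 3.18-fold above it under Runx3_fl, short of the limit, and 37.9-fold under Runx3, with myeloid levels of 293 and 30.2 CPM. The CD4 T counts depended on the cells counted, since 5 and 2 members passed when cells in more than 1 gate were left out.

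The myeloid level itself moved with T and NK markers. Cd3e had a UMI in 14.7% and 7.1% of the myeloid gate and Ncr1 in 2.65% and 0.919%. Of the 7 T cell markers, 0 and 0 were detected in at least 25% of the myeloid gate, and their summed level there was 566 and 147 CPM. In myeloid cells without a Cd3e or Ncr1 UMI (2224 and 2903 cells) Gzmb was at 35.4 and 9.62 CPM, Gzma at 139 and 14.8 CPM, Prf1 at 13.7 and 2.74 CPM and Nkg7 at 34.0 and 7.83 CPM. Gzma was thus still higher under Runx3_fl, with a log2 ratio of −3.14 [−3.37, −3.09], in cells where those T and NK genes were not detected. Over the kept cells of every kind Gzma was at 1654 and 134 CPM, Gzmb at 824 and 69.7 CPM and Prf1 at 121 and 20.4 CPM, and Gzma was also higher under Runx3_fl in plasma cells (154 and 14.6 CPM), dendritic cells (183 and 28.3 CPM) and neutrophils (246 and 21 CPM). The part of free RNA in these values was not tested.

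Within single cells the genes combined differently by cell type. After thinning, Gzma, Gzmb and Prf1 were found together in 42.8% [40.2, 45.5] and 42.4% [33.6, 51.6] of NK cells, and none of the 3 was found in 2.30% [1.58, 3.23] and 11.2% of them. The triple-positive shares of NK cells thus differed by less than their intervals (79.9% and 77.2% with all UMIs), while cells with none of the genes were more frequent under Runx3, with an interval of 6.26 to 18.1. For CD8 T cells labelled Runx3_fl the leading class was Gzma with Gzmb and no Prf1, at 67.1% [64.4, 69.7], beside 12.0% with the 3 genes and 4.13% with none. Under Runx3 that class made up 11.8% [5.56, 21.3] of 76 CD8 T cells and 77.6% [66.6, 86.4] had none. In CD4 T cells Gzmb alone led, at 48.9% and 10.6% [6.78, 15.6], and 29.4% and 86.5% had none. The myeloid gate had none of the 3 in 80.6% and 95.9% of cells. With all UMIs the 3 genes were found together in 57.9% and 1.32% of CD8 T cells and none of them in 1.15% and 59.2%.

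**Figure D3:**
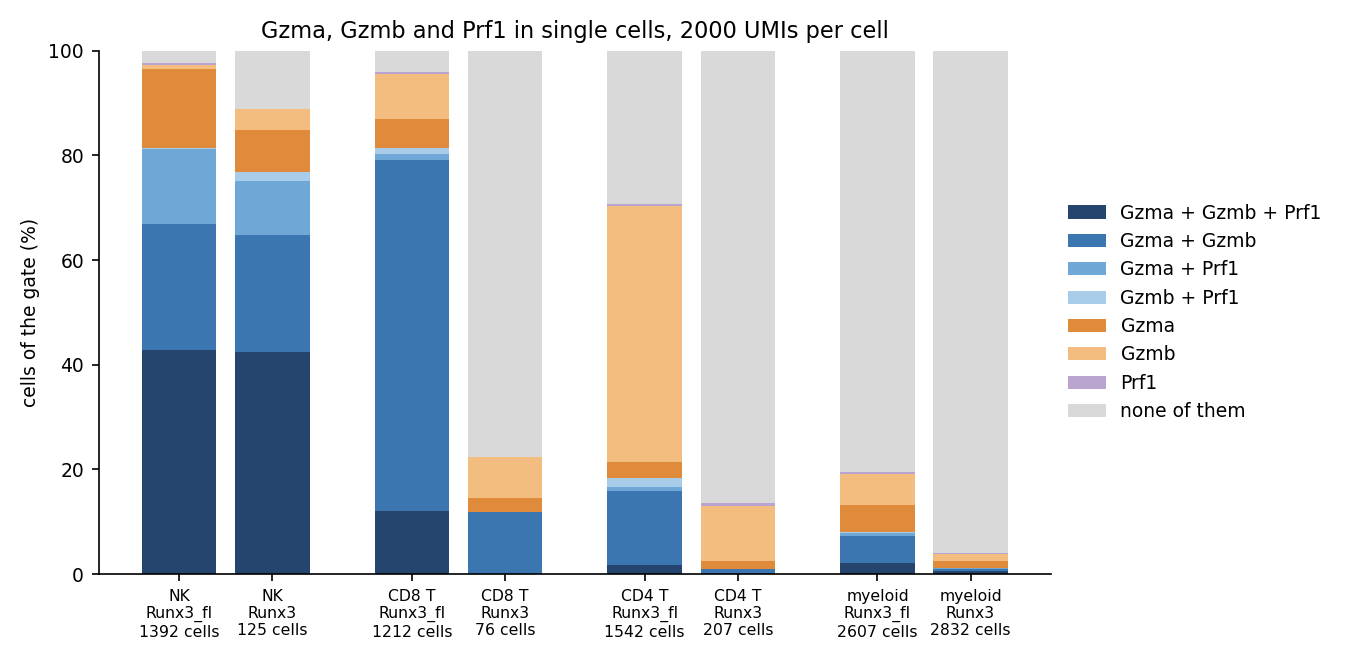
Share of cells (%) of each gate and library with each combination of Gzma, Gzmb and Prf1 after thinning to 2000 UMIs per cell, with the number of cells below each bar. The dark segment for the 3 genes together reaches 42.8% and 42.4% in the NK bars, and the grey segment for none of them fills 77.6% of the CD8 T bar of the Runx3-labelled library against 4.13% under Runx3_fl.

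Counting the 9 members in each thinned cell, the median was 4 and 4 in NK, 4 and 1 in CD8 T, 2 and 0 in CD4 T and 0 and 0 in myeloid cells. At least 5 members were detected in 25.9% and 22.4% of NK cells and in 22.5% and 1.32% of CD8 T cells, or 80.5% and 78.0%, and 93.7% and 21.1%, with all UMIs. The thinned intervals overlapped in NK cells (23.6 to 28.3 and 15.4 to 30.7) and did not in CD8 T cells (20.2 to 25 and 0.0333 to 7.11).

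Genes of naive and cycling T cells differed between the libraries in the T cell gates. Tcf7, a factor of naive and memory T cells, was at 19.0 and 279 CPM in CD8 T and 27.4 and 213 CPM in CD4 T cells. Ccr7, a chemokine receptor that guides naive and central memory cells to lymph nodes, was at 31.4 and 231 CPM in CD8 T cells. Mki67, a gene of dividing cells, was at 283 and 19.2 CPM in CD8 T and 259 and 41.6 CPM in CD4 T cells. The gates do not separate the mix of T cell states from the level within a state, and the part of this mix in the ratios was not tested across the gate. T cells were split by a UMI of Ccr7 or of Lef1, a partner of Tcf7, which 67.4% and 69.7% of CD8 T and 66.0% and 80.3% of CD4 T cells had, a split made after these values were seen. Median UMIs per cell were 17794.5 and 12163 in CD8 T cells with such a UMI, and 12678 and 6979 in those without. In CD4 T cells they were 15757 and 11009 with such a UMI, and 12220 and 8243 without. The split therefore followed depth, and the part of cell state in it was not tested. Under Runx3_fl, CD8 T cells with such a UMI over those without gave log2 ratios of −0.10 for Gzma and −0.34 for Gzmb. Under Runx3 these were −3.49 and −3.87, so the split did not divide the cells alike in the 2 libraries.

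CD8 T cells with such a UMI (818 and 53 cells) held Gzma at 3299 and 87.5 CPM and Gzmb at 2441 and 79.9 CPM. In those without one (395 and 23 cells) Gzma was at 3541 CPM [3492, 3590] and 991 CPM [859, 1139], and Gzmb at 3099 CPM [3054, 3146] and 1185 CPM [1039, 1345]. The log2 ratios were thus nearer to 0, at −1.84 [−2.04, −1.64] and −1.39 [−1.58, −1.20]. Gzmk was at 232 and 69.4 CPM there, Nkg7 at 1184 and 709 CPM, Fasl at 137 and 89.2 CPM and Ctsw at 165 and 129 CPM. Prf1 was at 84.1 CPM and, from 1 UMI in 23 cells, at 4.96 CPM [0.125, 27.6]. In CD4 T cells without such a UMI (524 and 41 cells) Gzmb was at 1079 CPM [1055, 1103] and 582 CPM [512, 659], a log2 ratio of −0.89 [−1.08, −0.71] that no longer passed the limit, beside −3.32 [−3.52, −3.15] in CD4 T cells with one (1067 and 106 CPM). Nkg7 stayed past it in CD4 T cells without such a UMI, at 848 and 120 CPM, a log2 ratio of −2.81 [−3.25, −2.43].

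**Figure D4:**
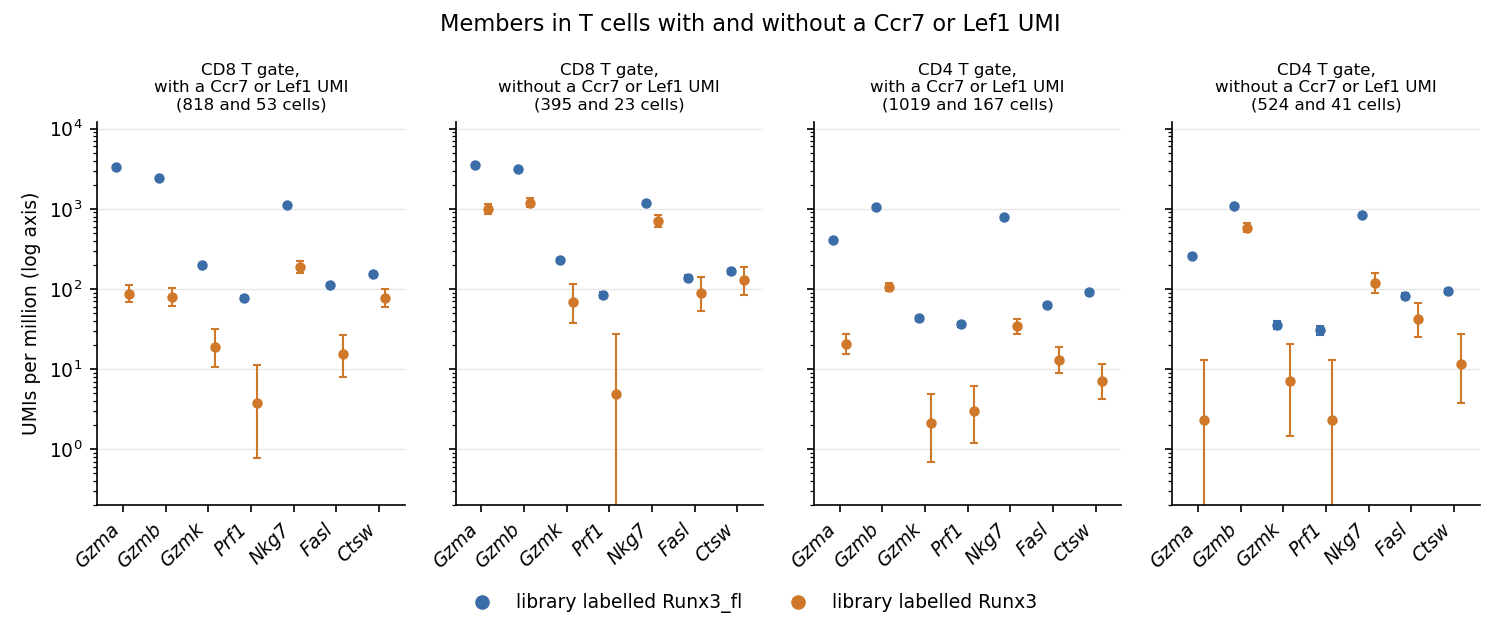
Level of 7 members (CPM, log axis) in CD8 T and CD4 T cells with and without a UMI of Ccr7 or Lef1, of the 2 libraries (labelled Runx3_fl and Runx3), with cell numbers in the panel titles and 95% Poisson intervals as bars. In CD8 T cells without such a UMI the libraries lie closer (Gzmb 3099 and 1185) than in those with one (2441 and 79.9).

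Leaving out T cells with a UMI of another lineage (Cd79a, Csf3r, Flt3 or Csf1r), which left 45 CD8 T and 111 CD4 T cells of the Runx3-labelled library, gave log2 ratios of −2.75 for Gzma, −2.75 for Gzmb, −1.98 for Gzmk, −3.90 for Prf1 and −1.75 for Nkg7 in CD8 T cells. In CD4 T cells the values were −4.41 for Gzma, −2.09 for Gzmb and −3.95 for Nkg7. The members named here thus stayed below −1 without the cells that carried those markers. Ratios of the other members are not listed here. Of those, Gzmm was past the limit in the other direction in CD8 T cells, with 1.13 as its highest log2 ratio under the alternative settings.

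NK cells were also described in narrower groups. Cycling NK cells, with a Mki67 UMI (214 and 26 cells), held less Prf1 than those without in both libraries, at 335 CPM [315, 357] against 588 CPM [573, 603] and at 359 CPM [304, 421] against 527 CPM [485, 572]. Gzma had the same order, at 4857 against 5672 CPM and 2879 against 3621 CPM. Cycling NK cells had median counts of 12735.5 and 14478 UMIs against 7668 and 9250, and their 10 macrophage and monocyte markers summed to 1092 and 1252 CPM against 600 and 1101 CPM, with 4 and 6 against 2 and 4 of them in at least 25% of cells. The 5 neutrophil markers summed to 107 and 194 CPM against 27.7 and 5481 CPM. The part of these differences in the levels was not tested. Cells with Klrb1c and Klre1 but neither Ncr1 nor Cd3e (920 and 56 cells), which the NK gate misses, held Gzma at 5329 and 3223 CPM, Gzmb at 908 and 1331 CPM and Prf1 at 516 and 587 CPM. The lower Gzma and higher Gzmb of the Runx3-labelled library were thus found in these cells too, whereas the Prf1 difference turned to a log2 ratio of 0.18 [0.01, 0.36].

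Other T cells of the libraries extended the range. Cells with both Ncr1 and Cd3e (98 and 6 cells) held Gzma at 2878 and 1394 CPM and Gzmb at 1590 and 769 CPM. Cells with Trdc and Cd3e but no Trac, the gamma-delta pattern, numbered 21 and 25 and held Gzma at 5066 CPM [4764, 5382] and, from 2 UMIs, 6.13 CPM [0.742, 22.1], with Gzmb at 957 and 153 CPM. Of the 10 NK markers, 10 and 3 were detected in at least 25% of this gate, with Eomes in 76.2% and 4.0% of its cells. The gate thus held unlike cells in the 2 libraries, and its levels are not read as a difference within gamma-delta T cells. T cells with no Cd4, Cd8a or Cd8b1 UMI (489 and 314 cells) held Gzma at 746 and 38.8 CPM and Gzmb at 639 and 91.5 CPM. Foxp3-positive CD4 T cells (24 and 40 cells), the regulatory lineage, held Gzmb at 1423 CPM [1301, 1552] and 299 CPM [256, 347], above the CD4 T gate as a whole in both libraries. Prf1 in these cells was at 45 CPM under Runx3_fl, and 0 UMIs were found in the 40 cells under Runx3, a count that allows up to 5.22 CPM at the limit of 3 counts. In 2 cells with Ms4a2 and Cpa3, the basophil and mast cell pattern, Gzmb was at 4065 CPM and Gzma had 0 UMIs, and in 7 such cells of the Runx3-labelled library Gzmb was at 138 CPM.

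**Figure D5:**
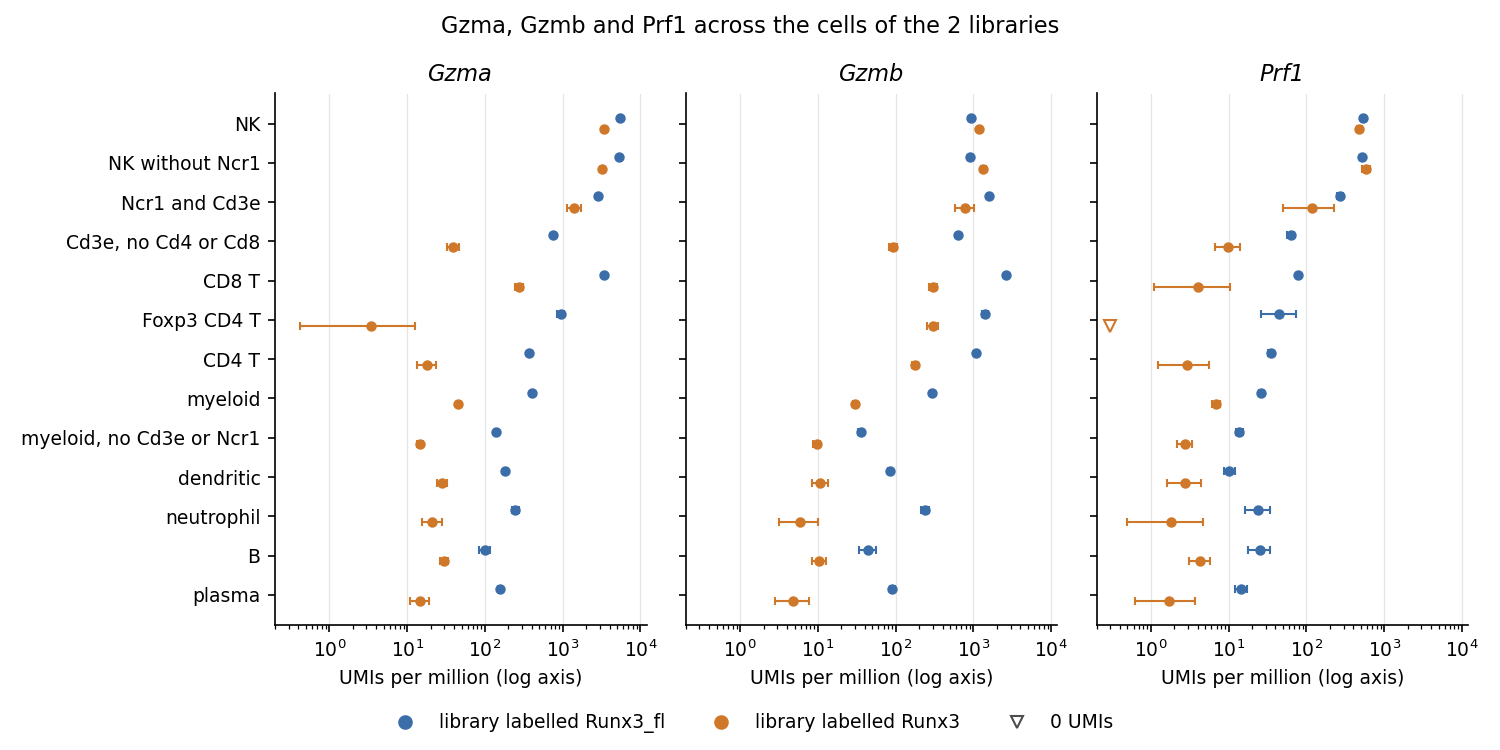
Level of Gzma, Gzmb and Prf1 (CPM, log axis) in 13 gates of the libraries labelled Runx3_fl and Runx3, with 95% Poisson intervals as bars and an open triangle for 0 UMIs. For Gzmb the libraries lie closest in the rows NK and NK without Ncr1 (931 and 1181.5, and 908 and 1331), where the library labelled Runx3 is the higher one, and it is the lower one in the other rows.

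Of Gzma UMIs over the kept cells, the NK gate held 31.4% and 58.2%, the CD8 T gate 31.7% and 3.07%, and cells in none of the 4 gates 32.0% and 31.9%. Of Gzmb UMIs the CD8 T gate held 49.5% and 6.61%, the CD4 T gate 23.6% and 10.9% and the NK gate 10.7% and 38.7%. The NK gate held 41.3% and 53.8% of Prf1 UMIs. Of the 4 gates, the NK gate thus held the most Gzma, Gzmb and Prf1 under Runx3, whereas the CD8 T gate held the most Gzmb under Runx3_fl.

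Other genes of the granule and death receptor pathways were counted by the same limit. Genes that reached 10 CPM in a single library entered these counts through it, so the counts lend no support beyond the levels. Of 50 listed genes, 40 reached 10 CPM in NK cells, where 3 were higher and 0 lower, beside 5.98% and 1.21% of genes. Among CD8 T cells 4 were higher and 4 lower of 39, beside 15.5% and 11.1% of genes. CD4 T cells had 6 higher and 8 lower of 41, beside 15.4% and 8.68%, and myeloid cells 3 and 6 of 39, beside 7.68% and 3.05%. The further granzymes Gzmd, Gzme, Gzmf, Gzmg and Gzmn had 0 to 21 UMIs in any gate of the Runx3_fl-labelled library and 0 under Runx3, and 0 of 5 reached 10 CPM. Srgn, the proteoglycan core that packs granules, was at 2163 and 1591 CPM in NK and 1512 and 1225 CPM in CD8 T cells, and Calr, a chaperone also found in granules, at 419 and 457 CPM in NK cells. The granule genes past the limit in NK cells, named after their values were seen, were the cathepsins Ctsl (26.2 and 61.5 CPM) and Ctsh (19.8 and 49.5 CPM), which macrophages also express. Both were also higher in CD8 T and CD4 T cells, with Lamp1, a lysosomal membrane gene, at 61.3 and 143 CPM in CD8 T and 49.6 and 199 CPM in CD4 T cells, and these are gates in which macrophage markers were higher under Runx3. The part of macrophage transcripts in the levels of these 3 genes was not tested. Lower in CD4 T cells was Cst7, the cystatin of cytotoxic granules, at 38.3 and 6.10 CPM. Cst7 was also lower in the myeloid gate, at 12.5 and 5.11 CPM, a log2 ratio of −1.14. In both gates it reached 10 CPM under Runx3_fl alone. Of the 9 exocytosis genes, 9 reached 10 CPM and 0 were past the limit in any gate, with Ap3b1, of the adaptor complex that sorts granule cargo, at 314 and 259 CPM and Stx11, a fusion syntaxin, at 207 and 187 CPM in NK cells.

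Some inhibitors of granzymes were lower in T cells labelled Runx3. Of the 5 listed inhibitors, 4 reached 10 CPM in CD8 T cells and 3 of them, Serpinb9, Serpinb6b and Serpinb9b, were lower, beside 11.1% of genes, and Serpinb9, Serpinb6b and Serpinb1a were lower of 4 in CD4 T cells, beside 8.68% of genes. Serpinb9b, at 10.2 and 0 CPM in CD8 T cells, and Serpinb1a in CD4 T cells reached 10 CPM under Runx3_fl alone. They entered these counts through the library where they were high, so the counts lend no support beyond the levels. Serpinb9, which blocks granzyme B and protects the killer from its own granules, was at 1168 CPM [1150, 1187] and 814 CPM [769, 861] in NK cells, 491 CPM [481, 500] and 92.9 CPM [74.9, 114] in CD8 T cells and 342 and 45.6 CPM in CD4 T cells, with log2 ratios of −0.52, −2.39 and −2.88. Serpinb6b, a related intracellular serpin, was at 636 and 483 CPM, 388 and 54.5 CPM, and 288 and 27.3 CPM in the same gates. Both were also lower in the myeloid gate, Serpinb9 at 187 and 37.2 CPM and Serpinb6b at 79.3 and 13.5 CPM, with log2 ratios of −2.30 and −2.46. Serpinb1a was the 1 inhibitor higher in NK cells, at 1.70 and 15.4 CPM, from 22 and 23 UMIs. It reached 10 CPM under Runx3 alone, in a gate whose neutrophil markers were also higher under Runx3. The part of neutrophil transcripts in its level was not tested. Serpinb1a was also higher in the myeloid gate, at 5.28 and 20.1 CPM, and lower in CD4 T cells, at 23.8 and 7.54 CPM.

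Of the death receptor list, Casp8, which starts the caspase cascade under Fas, was at 100 and 86.9 CPM and Tnf at 61.9 and 68.9 CPM in NK cells. Among the regulators, Il2rb, a subunit of the receptor for the interleukins that feed NK cells, was at 1242 and 1163 CPM and Id2 at 1207 and 1063 CPM in NK cells. Past the limit were Tcf7, with log2 ratios of 3.80 in CD8 T, 2.91 in CD4 T and 1.22 in myeloid cells, Tbx21 in CD4 T cells (−1.15, 95.3 and 42.3 CPM), Eomes in CD4 T (−1.60) and myeloid cells (−1.52), Stat4 in CD4 T cells (−1.23) and Il2rb in myeloid cells (−1.43). Within CD8 T cells Tbx21 was at 86.7 CPM [82.8, 90.8] and 91.9 CPM [74.0, 113] and Eomes at 51.2 and 34.3 CPM, so their log2 ratios of 0.08 and −0.56 were smaller in size than those of Gzma and Gzmb.

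The genes with the profile most like that of a member were sought over 20 profiles, 10 gates in each of the 2 libraries, among 6647 genes with at least 50 CPM in 1 of them. The profiles share libraries and depth, so the values are a description. The basophil and mast cell profiles rest on 2 and 7 cells. In the 2 cells labelled Runx3_fl, Gzmb was at 4065 CPM while Gzma and Prf1 were at 0. The part of these profiles in the order of like genes was not tested. Gzma was most like the chemokine gene Ccl5 (Pearson r 0.94), then Eomes, Prf1, Ctsw and Sult2b1 (0.93 each). Prf1 was most like the Ly49 receptor genes Klra8 (0.96) and Klra7 (0.94), then Gzma, Eomes and Klre1 (0.93 each), and Klr genes are families of close copies whose reads can be split between them. Gzmb was most like D16Ertd472e (0.94), then Sytl3 (0.88), Nkg7 (0.87), Rundc3b (0.86) and Cdc37 (0.85), and neither Gzma nor Prf1 was among its 5 closest genes.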

How the data were processed

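Per the file headers, the matrices were written by Cell Ranger 7.1.0, and the submitters' processing notes name Seurat 4 and mm10. The values are UMI counts per gene and cell, deposited by the authors without normalization, for 2 libraries made with a 10x 3′ kit from lamina propria cells that passed a Percoll gradient, dead-cell removal and sorting. The annotation used by the authors is not given in the sources used here. Positions were taken from GENCODE M21 (GRCm38) and promoters from RefSeq (GRCm38.p6).

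Cells with 200 to 6000 genes and at most 15% mitochondrial UMIs were kept, as the study states. UMIs were summed per gate and library and given per 1000000 UMIs (CPM) with exact Poisson intervals. Shares of cells carry Clopper-Pearson intervals and are given for cells thinned to 2000 UMIs, which left out cells with fewer (616 and 1868 of the kept cells, 4 and 2 of the NK gate). Ratios were taken as log2 of levels with 1 CPM added, Runx3 over Runx3_fl, and a call needed a log2 of 1 between libraries or 2 over the myeloid gate in genes with at least 10 CPM. No test across libraries was possible with 1 library per group. PCR copies are removed by UMIs, and intervals cover counting error only. No doublet caller was run; a limit of 4000 genes and cells of 1 gate only were tried instead. The members and gene lists, and the rule for named genes (the 9 members, of each further list the 2 genes highest in NK cells, the 5 further granzymes, regulators past the limit and the 5 genes most like Gzma, Gzmb and Prf1), were chosen with earlier results of these data known. The gates for cells without Ncr1, for myeloid cells without Cd3e or Ncr1 and for the Ccr7 and Lef1 split, and Serpinb1a, Serpinb9b, Ctsl, Ctsh, Lamp1 and Cst7 as named genes, were added after values were seen. Some genes and cell groups are not reported here. The scripts were tested on simulated data. Computation used scipy 1.17.1 and numpy 2.4.6 with pandas 2.3.3 under Python 3.11.15, and figures used matplotlib 3.10.9.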

Additional observations from a re-analysis of the deposited data

Results flagged for a closer look

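Gzmb differed in the direction of its ratio between cell types. In NK cells its log2 ratio, Runx3 over Runx3_fl, was 0.34, whereas it was −3.1 in CD8 T cells, −2.58 in CD4 T cells and −3.23 in the myeloid gate. It stands out because the counting interval lies above 0 in 1 gate and below 0 in the 3 others. The difference between the gates was not tested, since each library is 1 sample.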

How the results depend on the processing

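No paired analysis was possible because each group has 1 library. Of 36 ratios of members by gate, 23 passed the limit, and 21 of these kept their sign under each alternative that could be run, 15 in the lymphoid gates and 14 in the myeloid gate, 2 of them added after the values were seen. Gzmk in NK cells reversed to 1.78 when the myeloid level was subtracted, where Gzma in CD4 T cells came to 0. Of 202 counts under alternatives, 168 were within 1.5 times the main count.

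In NK cells the counts of 1 higher and 1 lower became 0 and 0 with 2 UMIs of each gate gene, with further CD3 genes, with the myeloid level subtracted, with a pseudocount of 10 CPM and with genes from 50 CPM, and 0 were lower by the mean of per-cell CPM. They became 2 lower with 4000 genes as the upper limit. In CD8 T cells 1 member, Gzmm, was higher in cells with no marker of another lineage. In the myeloid gate the 7 lower became 4 with cells of 1 gate only, 4 with further CD3 genes and 3 with genes from 50 CPM. Over the myeloid gate, CD8 T members of the Runx3-labelled library fell from 7 to 4 with a pseudocount of 10 CPM and 4 with genes from 50 CPM.

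CD4 T members over the myeloid gate, 1 and 1, became 5 and 2 with cells of 1 gate only and with 4000 genes, 5 and 3 with further CD3 genes and with no marker of another lineage, 4 and 2 by the mean of per-cell CPM, and 4 and 3 without cells with a Ccr7 or Lef1 UMI. Under Runx3_fl they became 4 with 2 UMIs of each gate gene and 4 after thinning, and 0 with no filter on cells and with the median gene at a ratio of 0. The 76 CD8 T cells of the Runx3-labelled library limit what can be said of genes with few UMIs there, Gzmc and Prf1 above all.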
